A study of Mus musculus with 2 samples.

Results

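Slc17a7-positive glutamatergic neurons were selected from single-cell RNA libraries of mouse midbrain tissue by a rule on gene counts in each cell barcode. Slc17a7 encodes VGLUT1, a transporter that loads glutamate into synaptic vesicles. A barcode was a member if it had at least 200 genes, at most 20% of its unique molecular identifiers (UMIs, each standing for 1 captured RNA molecule) from mitochondrially encoded genes, and at least 1 Slc17a7 UMI. The UMIs of 9 neuronal genes (Snap25, Syt1, Chgb, Rtn1, Scg2, Syp, Nell2, Vsnl1 and Atp1b1) also had to sum to at least 3, make up at least 0.5% of the barcode and exceed the sum of 6 glial and vascular genes (Slc1a2, Slc1a3, Ctss, C1qb, Cldn5 and Mag). The rule found 72 members, 16 in the control library against 56 in the MNPQ library. They came from 1736 barcodes that passed the gene and mitochondrial filter, of 2070 barcodes in all. These 16 genes chose the members, so their values are given as a description only.

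The study compared male C57BL/6 mice aged 10 weeks, 3 in each group per the protocol, with the tissue of a group pooled into 1 library. MNPQ stands for the herbicide paraquat at 10 mg/kg and the fungicide maneb at 30 mg/kg, injected 2 times each week over 3 weeks, a combination used to model Parkinson's disease. The control animals carry the label untreated, although saline injections are part of the protocol, and the sex label reads pooled although the protocol names males. Both groups were of the same strain, and both tissues were dissociated with papain. With 1 library per group there was no replicate, no test was made, and every ratio below compares these 2 libraries only. Intervals are exact 95% intervals for counting error and do not cover variation between cells, mice or dissections.

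In the brain, VGLUT1 is best known from excitatory projection neurons of the cerebral cortex and hippocampus, while the related transporter VGLUT2, encoded by Slc17a6, prevails in thalamus and brainstem. Dopaminergic neurons of the substantia nigra pars compacta, the tissue on the label, make dopamine with tyrosine hydroxylase (Th) and retrieve it with the dopamine transporter (Slc6a3). Inhibitory neurons make GABA with Gad1 and Gad2 and load it into vesicles with Slc32a1. Glutamate released from VGLUT1 vesicles acts on AMPA and NMDA receptors held in the postsynaptic density.

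Members were a larger share of the MNPQ library than of the control library. They made up 1.81% of 882 kept control barcodes (1.04 to 2.93) and 6.56% of 854 kept MNPQ barcodes (4.99 to 8.43). The shares lay closer under a stricter filter of 500 genes and 10% mitochondrial UMIs, at 2.05% (8 of 391) and 4.7% (19 of 404). Among barcodes with at least 1000 UMIs they were 2.27% (10 of 440) and 3.42% (14 of 409). Neurons that met the same rule but had 0 Slc17a7 UMIs, called Slc17a7-negative neurons here, numbered 81 in the control library (9.18%, 7.36 to 11.3) against 55 in the MNPQ library (6.44%, 4.89 to 8.3). Neurons of both kinds together were 11.0% of control barcodes (9.01 to 13.3) and 13.0% of MNPQ barcodes (10.8 to 15.4), shares whose intervals overlapped. Among these neurons, 16 of 97 in the control library (16.5%, 9.73 to 25.4) and 56 of 111 in the MNPQ library (50.5%, 40.8 to 60.1) had a Slc17a7 UMI. When each barcode was thinned at random to 500 UMIs, 6.19% (2.3 to 13) and 34.2% (25.5 to 43.8) of neurons still had one. Glial barcodes, with at least 5 UMIs of the 6 glial and vascular genes and more of them than of the neuronal genes, served as cells that should lack Slc17a7. A Slc17a7 UMI was seen in 4 of 445 control glial barcodes (0.899%) and 8 of 388 in the MNPQ library (2.06%), at a median depth of 2020 and 3109.5 UMIs. The median depth of the neurons was 770 and 743 UMIs, so the share of neurons with Slc17a7 lay above this background at lower depth. Which part of the tissue each punch took and the treatment cannot be told apart, since each group was 1 dissection pool.

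**Figure D1:**
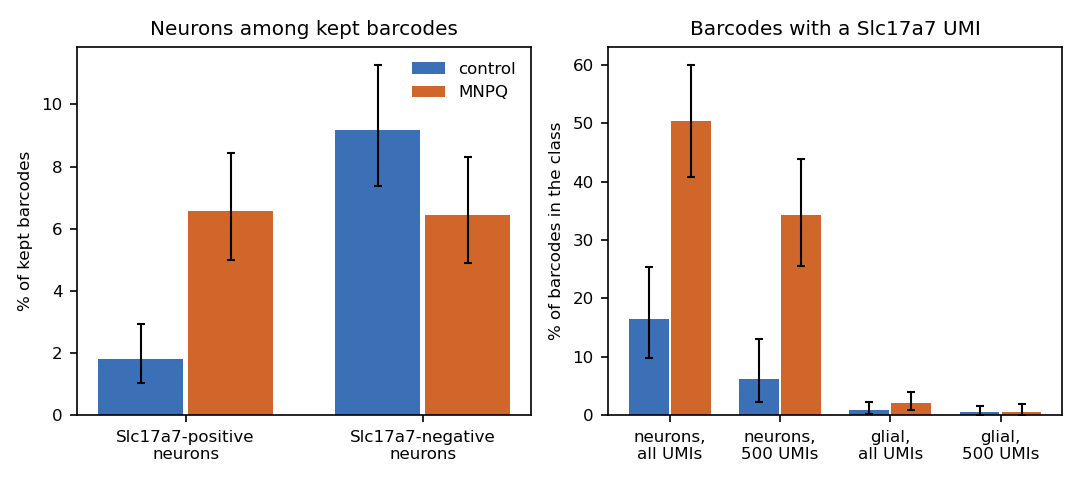
The left panel plots Slc17a7-positive and Slc17a7-negative neurons as a percentage of kept barcodes in the control library (blue) and the MNPQ library (orange). The right panel plots the percentage of neurons and of glial barcodes with at least 1 Slc17a7 UMI, from all UMIs and after thinning to 500 UMIs. Bars are shares and lines are exact 95% binomial intervals. Positive neurons stood at 1.81% and 6.56%, and glial barcodes had Slc17a7 in at most 2.06%.

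Slc17a7 lies on chromosome 7 (45163949 to 45176142, plus strand, mm10). It had 43 UMIs in the control members and 94 in the MNPQ members, out of 80 and 145 UMIs in all barcodes of each library. Of 16 control members, 7 had 1 UMI, 4 had 2, 2 had 5 and 3 had 6. Of 56 MNPQ members, 33 had 1 UMI, 12 had 2, 8 had 3, 2 had 4 and 1 had 5. Most members in the MNPQ library therefore rest on a single Slc17a7 molecule. A further 12 control and 27 MNPQ barcodes passed the filter with a Slc17a7 UMI and missed the neuron criteria. The neuronal sum of members ran from 0.642% to 4.04% of UMIs in the control library (median 1.61%) and from 0.519% to 4.93% in the MNPQ library (median 2.17%). Just outside the rule, the highest neuronal sum among kept barcodes with Slc17a7 was 0.768% in the control library, in a barcode whose glial sum was not below its neuronal sum, and 0.495% in the MNPQ library. The glial and vascular sum was 0 in 11 of 16 control and 28 of 56 MNPQ members and never exceeded 5 UMIs. The libraries shared 2 barcode sequences, 1 of which belonged to a member. Scrublet, a doublet caller, marked no member, and marked 9 control and 6 MNPQ barcodes among those kept.

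The members differed in depth between the libraries. Control members held 38902 UMIs, from 502 to 10700 per barcode (median 1226.5), and MNPQ members held 49916 UMIs, from 506 to 2852 (median 748.5). The median number of genes was 869 and 548.5, and the median mitochondrial share was 9.29% and 10.0%. The 2 deepest control barcodes, with 10700 and 9138 UMIs, supplied 51.0% of the control UMIs, while the deepest MNPQ barcode supplied 5.71%. Without these 2 barcodes, 14 control members with 19064 UMIs and a median of 1024 remained. Ratios between the libraries are therefore also given without them, a choice made after seeing the data.

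The 2 deep barcodes also differed from each other in their marker genes. The first had 18 of the 23 control UMIs of Rprm, a marker of deep cortical layers, and high counts of Plk2, a kinase induced by neuronal activity, and of the synaptic vesicle gene Syn2 (12 UMIs). The second held 28 of 29 control UMIs of Rora, all 16 of Prkcd, 14 of 15 of Ramp3 and 19 UMIs of Ntng1, genes known from thalamic relay neurons. It also held 176 UMIs of Meg3 and 114 of Snhg11, both noncoding RNAs enriched in neurons. No other control member had a Prkcd UMI.

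Malat1, a noncoding RNA kept in the nucleus, varied widely among members. It had 3354 UMIs in the control members (8.62% of their UMIs) and 318 in the MNPQ members (0.637%). The 4 deepest control barcodes held 3264 of those control UMIs, at 10.0%, 8.44%, 21.4% and 28.2% of their own UMIs. In the other 12 control members Malat1 was 0.684% of UMIs, close to the MNPQ value. Malat1 was at 0 in 3 of 16 control members (18.8%) and 28 of 56 MNPQ members (50%). After thinning to 500 UMIs the shares at 0 were 25% and 58.9%, and the Slc17a7-negative neurons of the same libraries gave 24.7% and 58.2%. The remaining kept barcodes gave 38.1% and 48.9%, so the direction between the libraries held in barcodes of both kinds.

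**Figure D2:**
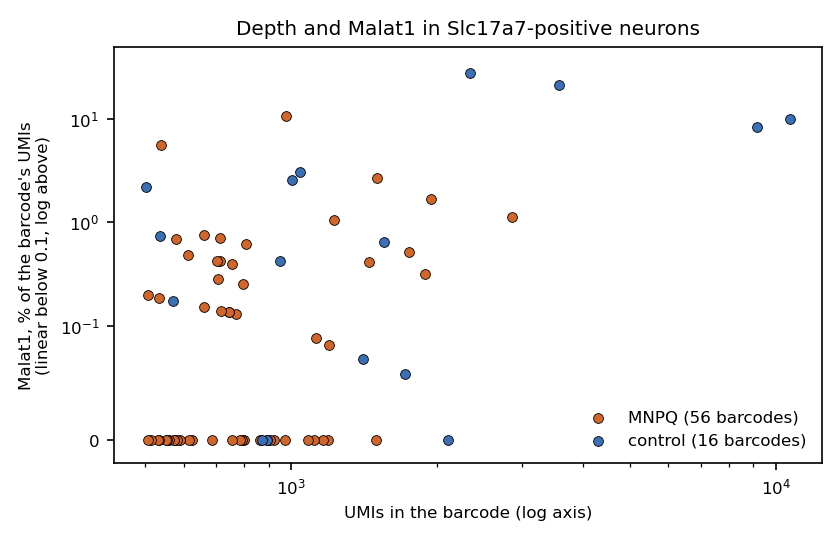
Each point is 1 Slc17a7-positive barcode, with its UMIs on a log axis and Malat1 as a percentage of its UMIs (linear below 0.1, logarithmic above). Control barcodes are blue and MNPQ barcodes orange. The 4 deepest control barcodes sit between 8.44% and 28.2% Malat1, and 28 of 56 MNPQ barcodes sit at 0.

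The label of the group was checked against markers that the rule did not use. Few members carried Slc17a6, Gad1, Gad2 or Slc32a1. Slc17a6 UMIs were present in 2 of 16 control and 2 of 56 MNPQ members, against 15 of 81 and 3 of 55 Slc17a7-negative neurons. Gad1, Gad2 or Slc32a1 was seen in 1 of 16 and 2 of 56 members, against 16 of 81 and 16 of 55 negative neurons. No UMI of any of these 4 genes was present in 13 of 16 control members (81.2%, 54.4 to 96) and 52 of 56 MNPQ members (92.9%, 82.7 to 98). Slc17a6 is itself a glutamate transporter gene, so of these genes only Gad1, Gad2 and Slc32a1 oppose the glutamatergic label. Most members lacked them within the depth of these barcodes, as did most negative neurons. Of 14 dopaminergic genes, 11 were at 0 in control and 10 in MNPQ members, Th, Slc6a3 and Pitx3 among them. A count of 0 allows a share of members with a UMI of up to 18.8% in the control against 5.36% in the MNPQ library. The dopaminergic genes that did appear, such as Nr4a2 with 1 and 4 UMIs and Aldh1a1 with 0 and 3, never exceeded 1 UMI in a barcode. Negative neurons also lacked Slc6a3 and Pitx3, and held 1 Th UMI, in the control library. Any dopaminergic UMI occurred in 18.8% of members against 13.6% of negative neurons in the control library. The MNPQ shares were 16.1% and 12.7%. The absence of Th, Slc6a3 and Pitx3 therefore does not set members apart from negative neurons. The list of other aminergic and cholinergic genes had 0 and 1 UMIs.

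Transcription factors of telencephalic excitatory neurons were common among members. At least 1 UMI of these factors, which specify neurons of cortex and hippocampus, was present in 10 of 16 control members (62.5%, 35.4 to 84.8) and 22 of 56 MNPQ members (39.3%, 26.5 to 53.2). Mef2c was not among the factors counted here and is given separately below. The Slc17a7-negative neurons gave 18.5% (10.8 to 28.7) and 27.3% (16.1 to 41), so the control intervals did not overlap and the MNPQ intervals did. Neurod2, a factor of cortical excitatory neurons, had 12 UMIs in 5 control members and 9 UMIs in 8 MNPQ members. It was seen in 6.17% and 1.82% of negative neurons and in 0.255% and 0.404% of the remaining kept barcodes. Neurod6, a relative of Neurod2, had 2 UMIs in 2 members and 12 UMIs in 8 members. Tbr1, a factor of deep-layer cortical neurons, had 5 and 3 UMIs. Mef2c, an activity-regulated factor, was seen in 10 of 16 and 27 of 56 members, against 15 of 81 and 13 of 55 negative neurons. It was also seen in 20.4% and 17.8% of the remaining kept barcodes, most of which were not neurons. Mef2c was therefore not specific to excitatory neurons here. Camk2a, the kinase subunit of excitatory synapses, had 22 UMIs in 8 control members and 20 UMIs in 16 MNPQ members. It was seen in 23 of 81 and 14 of 55 negative neurons, shares of 28.4% and 25.5% against 50% and 28.6% of members. Control members were deeper than control negative neurons, with medians of 1226.5 and 687 UMIs. After thinning, Camk2a was present in 18.8% of control members and 19.8% of control negative neurons, so the control difference was lost. The MNPQ shares were then 19.6% and 14.5%. Thinned Mef2c shares were 25% and 13.6% in the control library and 33.9% and 12.7% in the MNPQ library. The remaining kept barcodes gave 7.39% and 5.92% for Mef2c after thinning. The whole telencephalic list gave 68.8% and 38.3%, then 64.3% and 43.6%, in the same order.

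Regional markers were sparse and mixed. Dkk3, a marker of hippocampal pyramidal neurons that cortex also expresses, had 3 UMIs in 3 control members and 31 UMIs in 20 MNPQ members, a log2 ratio of 3.01 (1.33 to 5.36), or 2.57 (0.59 to 5.67) without the 2 deep control barcodes. Zbtb20, a hippocampal factor also made by glia, had 15 UMIs in 3 control members and 7 in 5 MNPQ members. Calb1, the calcium buffer calbindin, had 8 and 1 UMIs in members but 39 and 28 in negative neurons. Fibcd1, a marker of hippocampal CA1, had 0 and 7 UMIs, and Rorb, of cortical layer 4, had 0 and 5. Markers of cortical layers were seen in 9 of 16 control and 28 of 56 MNPQ members (56.2% and 50%), against 55.6% and 41.8% of negative neurons. Hippocampal markers were seen in 12 and 31 members (75% and 55.4%), against 60.5% and 63.6% of negative neurons. The thalamus and midbrain list had 76 UMIs in control members, of which 2 lay outside the 2 deep barcodes, and 15 in MNPQ members. Its log2 ratio was -2.70 (-3.61 to -1.89) with all control members and 1.52 (-0.59 to 4.69) without the 2 deep ones, so its direction turned on them.

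RNA of glial genes was present in members at a low level that differed between the libraries. The lists below include the 6 glial and vascular genes of the rule, whose sum had to stay below the neuronal sum. Part of the low level is therefore set by the selection. Without rule genes the astrocyte list had 114 and 567 UMIs, the microglial list 34 and 35, and the endothelial list 26 and 59. The 16 astrocyte genes had 123 UMIs in control members (0.316% of UMIs) and 606 in MNPQ members (1.21%), with 5 and 2 of the genes at 0. The median member had 0.482% and 0.812%, and single members ran from 0.12% to 1.25% and from 0 to 8.29%. Slc17a7-negative neurons had 0.965% and 1.07% of their UMIs on these genes, shares nearer each other than those of members. In the remaining kept barcodes, most of which were not neurons, the median was 7.68% and 8.57%. The oligodendrocyte genes had 44 UMIs (0.113%) and 190 UMIs (0.381%), with 4 and 3 of 10 genes at 0. Mbp, the myelin basic protein gene, supplied 34 and 144 of these. In negative neurons the oligodendrocyte genes were 0.282% and 0.588% of UMIs. Microglial genes had 34 and 39 UMIs, of which Cd81, a gene that neurons also express, gave 32 and 29, and 8 and 3 of 11 genes were at 0. Endothelial genes had 26 and 62 UMIs, 25 and 52 of them from Bsg, which is not confined to vessels. Mural genes had 0 and 5 UMIs, ependymal and choroid plexus genes 0 and 1, oligodendrocyte precursor genes 2 and 6, and erythroid genes 7 and 9.

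**Figure D3:**
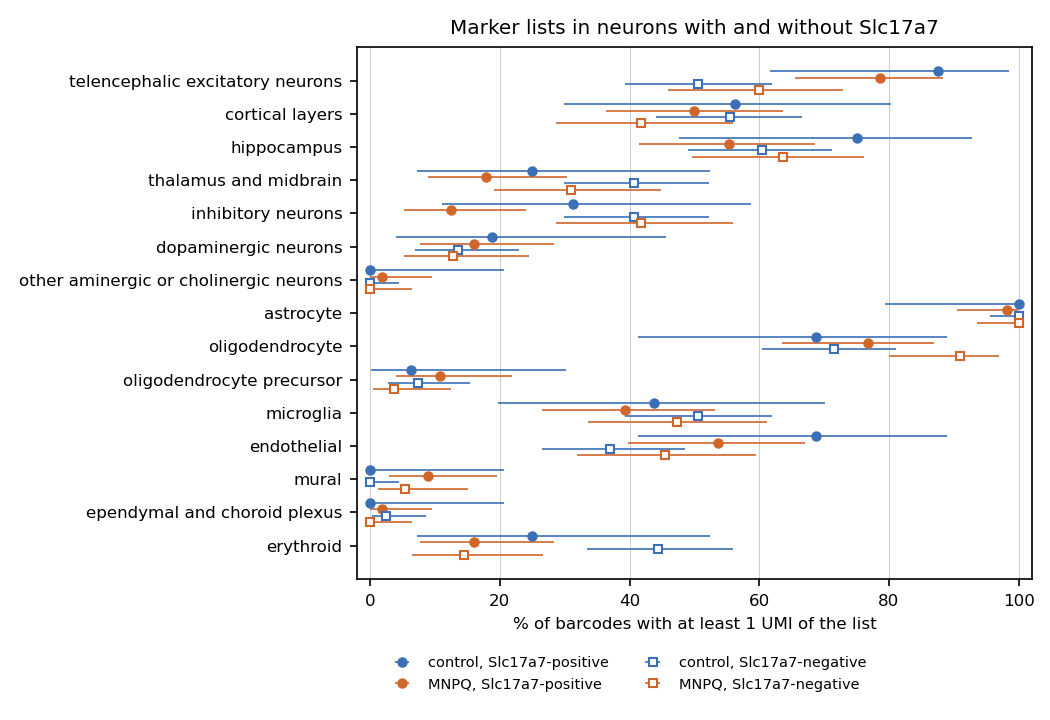
For each marker list, points give the percentage of barcodes with at least 1 UMI, and lines the exact 95% binomial interval. Filled circles are Slc17a7-positive and open squares Slc17a7-negative neurons, in blue for the control and orange for the MNPQ library. Members exceeded negative neurons for the telencephalic list and lay below them for the inhibitory and the thalamus and midbrain lists. The intervals overlapped in each of these pairs except the inhibitory list in the MNPQ library.

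Slc17a7-positive neurons were next compared with Slc17a7-negative neurons inside each library, which holds dissection and treatment constant. Both classes were chosen by counts in these same barcodes, so the ratios describe the classes. Of 1062 genes with at least 40 UMIs over both classes and libraries, rule genes left out, 18 (1.69%) were at least 2-fold higher in positive neurons in both libraries and 24 (2.26%) at least 2-fold lower. Without the 2 deep control barcodes, 15 of the 18 and 17 of the 24 stayed past 2-fold in the control library. The ratio had the same sign in both libraries for 600 of the 1062 genes. The median ratio over all genes was -0.17 in the control against 0.02 in the MNPQ library on the log2 scale.

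Genes of synaptic and secretory function led the higher side. Nptx1, a secreted pentraxin that clusters AMPA receptors at excitatory synapses, had 11 UMIs in 16 positive and 8 in 81 negative control neurons, a log2 ratio of 1.65 (0.20 to 3.17). In the MNPQ library it had 37 and 7 UMIs, a log2 ratio of 2.55 (1.37 to 3.96). It was seen in 19 of 56 positive and 5 of 55 negative MNPQ neurons. Cck, the neuropeptide cholecystokinin, which cortical pyramidal neurons as well as interneurons make, had log2 ratios of 1.48 (0.70 to 2.27) and 1.15 (0.65 to 1.66). It was seen in 8 of 16 and 32 of 56 positive neurons, against 11 of 81 and 22 of 55 negative neurons. Olfm1, a secreted protein of cortical neurons, gave 1.39 (0.69 to 2.10) and 1.04 (0.43 to 1.68). Cplx2, a complexin that controls vesicle fusion, gave 1.19 (0.17 to 2.22) and 1.05 (0.13 to 2.03). Pcsk2, a prohormone convertase, gave 1.02 (-0.05 to 2.08) and 1.47 (0.54 to 2.48), so its control interval included 0. Nptn, a synaptic adhesion molecule, gave 1.12 (0.46 to 1.78) and 1.02 (0.44 to 1.61), but 0.53 in the control library without the 2 deep barcodes.

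Chst1, a sulfotransferase, gave 1.48 (0.52 to 2.47) and 1.37 (0.18 to 2.68), but the ratio nearer 0 became -0.47 after thinning. The zinc transporter Slc39a10 gave 1.68 (0.65 to 2.74) and 1.07 (-0.10 to 2.34). The ubiquitin ligase subunit Fbxw7, the adhesion receptor Adgrb2 and the neuronal gene Npdc1 had nearer ratios of 1.19, 1.07 and 1.19, and their control intervals included 0.

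On the lower side, Nap1l5, an imprinted gene expressed in brain, had 12 UMIs in positive and 121 in negative control neurons, and 13 and 55 in the MNPQ library. Its log2 ratios were -2.14 (-3.13 to -1.29) and -1.93 (-2.93 to -1.04). It was seen in 48 of 81 and 23 of 55 negative neurons, but in 6 of 16 and 7 of 56 positive ones. Arglu1, a splicing-related gene, gave -2.39 (-5.52 to -0.38) and -2.08 (-4.52 to -0.23) from 2 and 3 UMIs in positive neurons. Map2, the dendritic microtubule protein, gave -1.58 (-3.11 to -0.34) and -1.55 (-2.91 to -0.37). Rab3c, a small GTPase of secretory vesicles, gave -1.84 (-3.35 to -0.61) and -1.08 (-2.19 to -0.05). Podxl2, Macf1, Gaa, Tcaf1, Rpl36al, Uqcrq and Rpl30 were also among the lowest, with nearer ratios between -1.02 and -0.92. At least 1 library's interval for each of these 7 genes included 0.

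Of the genes in the rule, Nell2, a secreted glycoprotein of neurons, had log2 ratios of 1.09 and 2.10, and the granin Chgb had 1.25 and 1.11. Scg2, another granin of dense-core vesicles, went the other way at -2.38 and -0.73, although it counts toward the rule in both classes.

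**Figure D4:**
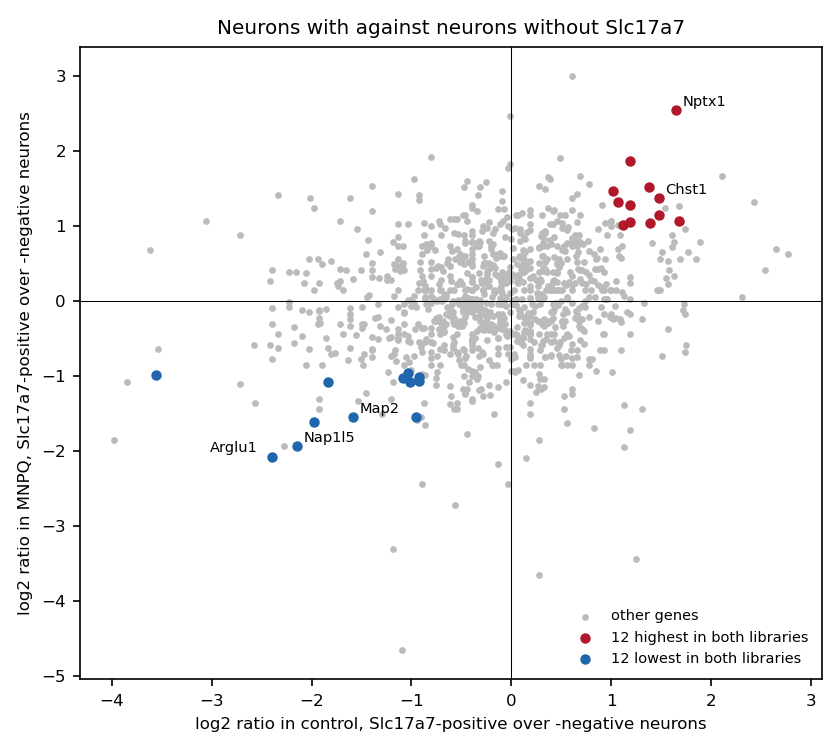
Each point is a gene with at least 40 UMIs over both classes and libraries. The axes give its log2 ratio of Slc17a7-positive over Slc17a7-negative neurons in the control library (horizontal) and the MNPQ library (vertical). Red points are the 12 genes taken as highest and blue points the 12 taken as lowest by the ratio nearer 0, and some near the ends are labelled. Nptx1 lies at 1.65 and 2.55, and Arglu1 at -2.39 and -2.08.

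The comparison of MNPQ with control members asked how the same class of neurons differed between the treated and the control library. Of 267 genes with at least 40 UMIs, 54 were at least 2-fold higher in MNPQ members (20.2%) and 16 at least 2-fold lower (5.99%). The median log2 ratio over these genes was 0.45, and 180 genes lay above 0 and 87 below. Counts scaled by the median of gene ratios instead gave 19 higher and 38 lower genes, because that scaling moves every ratio down by this median. Without the 2 deep control barcodes, 193 genes remained, of which 30 were at least 2-fold higher (15.5%) and 9 at least 2-fold lower (4.66%). Of these, 26 of the higher and 3 of the lower genes were past 2-fold in both. For 249 of the 267 genes (93.3%), 1 control barcode held over 20% of the control UMIs. The remaining 18 genes met the rule for being named, and those reported here follow.

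Apoe, the lipid carrier made mainly by astrocytes, was the gene with the highest ratio of the 18. It had 25 UMIs in control members (643 CPM, UMIs scaled to a common total) and 136 in MNPQ members (2725 CPM), in 10 of 16 and 38 of 56 barcodes. Its log2 ratio was 2.08 (1.46 to 2.76), or 1.31 (0.64 to 2.04) without the 2 deep barcodes. Cst3, a secreted protease inhibitor abundant in glia, had 39 and 198 UMIs, with 1.98 (1.48 to 2.52) and 1.43 (0.86 to 2.06). Mt1, a metal-binding metallothionein, had 13 and 65 UMIs, with 1.96 (1.09 to 2.95) and 1.17 (0.24 to 2.25). These 3 genes belong to the astrocyte list, whose share of UMIs was 0.316% in control and 1.21% in MNPQ members. In Slc17a7-negative neurons the share was 0.965% and 1.07%. The part of astrocyte RNA in the ratios of these 3 genes was not tested. Ctsb, a lysosomal protease, had 15 and 66 UMIs, with 1.78 (0.95 to 2.69) and 0.96 (0.08 to 1.94).

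The other genes of the 18 had smaller ratios. Camk2n1, an inhibitor of the kinase CaMKII, had 28 and 84 UMIs and a log2 ratio of 1.23 (0.59 to 1.90). Without the 2 deep barcodes it had 0.61 (-0.09 to 1.38), and after thinning -0.07. Gabbr1, a GABA-B receptor subunit, gave 0.91 (0.17 to 1.70), then 0.43 (-0.42 to 1.37). Cpe, which trims prohormones, gave 0.82 (0.40 to 1.25), then 0.22 (-0.24 to 0.71), and lay below 0 with each barcode weighted equally (-0.090) and after thinning (-0.17). Gnas, the stimulatory G protein subunit, gave 0.82 (0.19 to 1.47), then 0.49 (-0.26 to 1.31). The iron store Fth1 gave 0.88 (0.54 to 1.22), then 0.54 (0.15 to 0.96). Tmsb4x, an actin-binding peptide gene, gave 1.21 (0.65 to 1.80), then 0.27 (-0.30 to 0.87), and the ribosomal gene Rps3 gave 1.06 (0.06 to 2.15), then 0.44 (-0.66 to 1.69). The intervals of Hsp90b1, Atp6ap1, Cox8a, Rpl35a and Selenow included 0 with all members, at ratios of 0.24 to 0.72. Without the 2 deep barcodes Hsp90b1 had 0.20, Atp6ap1 0.32 and Cox8a 0.20, while Rpl35a (-0.49) and Selenow (-0.33) lay below 0. Counted against the median of 0.45 over all genes, Selenow and Rpl35a would lie lower in MNPQ members.

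Bex2, a small neuronal adaptor protein gene, had 29 UMIs in control and 33 in MNPQ members. Its log2 ratio was -0.17 (-0.94 to 0.60), and -0.59 (-1.45 to 0.30) without the 2 deep control barcodes, and both intervals included 0.

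With the 2 deep control barcodes left out, the same naming rule reached other genes. Ppp3ca, the catalytic subunit of calcineurin, had 30 and 131 UMIs and a ratio of 0.74 (0.16 to 1.36). Psap, a lysosomal saposin precursor, had 44 and 200 UMIs and a ratio of 0.80 (0.32 to 1.3). Map1b, a microtubule-associated protein of axons, had 45 and 39 UMIs and a ratio of -1.60 (-2.25 to -0.94), with -1.36 over all members. It was seen after thinning in 50% of these control members and 26.8% of MNPQ members. Sec62 and Tecr had ratios of -0.69 and -0.60 with intervals that included 0.

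Gene lists by function were read against all genes. Of 782 genes with at least 20 UMIs in members, 485 (62%) had a ratio above 0 and the median log2 ratio was 0.29. Without the 2 deep control barcodes, 369 of 591 genes (62.4%) lay above 0, with a median of 0.26. Of 25 lists, 12 had a summed ratio above 0 beyond counting error and 7 below, and without the deep barcodes these numbers were 7 and 8. Scaling by the median of gene ratios gave 4 above and 13 below. A list is described by its genes above and below 0 with all members, and by its summed log2 ratio with all members and then without the deep barcodes. Gene counts without the deep barcodes are given for some lists.

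For the presynaptic release machinery, 17 of 23 measured genes lay above 0 (median 0.57). The summed ratio was 0.41 (0.24 to 0.59), then 0.33 (0.11 to 0.55). Syn1, a synapsin that tethers vesicles, had 3 UMIs in control and 23 in MNPQ members, a ratio of 2.58 (0.85 to 4.96), then 3.13 (0.51 to 8.50). Synpr, a synaptophysin relative enriched in hippocampal mossy fibres, had 19 and 9 UMIs, a ratio of -1.44 (-2.77 to -0.22), then -1.39 (-2.90 to 0.12). For glutamate receptors and the postsynaptic density, 11 of 17 genes lay above 0 (median 0.34), and the summed ratio of 0.43 (0.24 to 0.61) became 0.22 (-0.00023 to 0.45) without the deep barcodes. Gria2, the AMPA receptor subunit that limits calcium entry, had 51 and 90 UMIs and a ratio of 0.46 (-0.05 to 0.98), then -0.03. Nrgn, the postsynaptic calmodulin-binding protein neurogranin, had 10 and 79 UMIs and a ratio of 2.62 (1.67 to 3.74), then 1.75 (0.75 to 2.93). Both lists had -0.03 and -0.02 when scaled by the median of gene ratios, so their direction depends on the scaling.

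GABA receptor genes all lay above 0, 7 of 7 with a median of 0.91 and a summed ratio of 0.89 (0.54 to 1.25), then 0.66 (0.23 to 1.11). Voltage-gated channel genes lay above 0 in 10 of 10 cases, with a summed ratio of 0.37 (0.12 to 0.63), then 0.59 (0.25 to 0.95), but -0.07 under the median scaling. Without the deep barcodes, 5 of 6 GABA receptor genes and 7 of 8 channel genes lay above 0. Calcium sensor and signalling genes were split at 11 above and 9 below, with 0.23 (0.10 to 0.36), then 0.15 (-0.02 to 0.31). Within them, Hpca, the hippocampal calcium sensor hippocalcin, had 0 UMIs in control and 26 in MNPQ members, and Camkv, a kinase-like synaptic protein gene, had 28 and 9. Camkv had a ratio of -2.0 (-3.27 to -0.87), then -1.68 (-3.13 to -0.27).

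Granin, prohormone processing and neuropeptide genes lay above 0 in 8 of 10 cases, with a summed ratio of 0.73 (0.52 to 0.96), then 0.49 (0.22 to 0.76). Pcsk1n, an inhibitor of prohormone convertase, was the lowest of them with 74 and 65 UMIs and a ratio of -0.55 (-1.05 to -0.05), then -0.69 (-1.28 to -0.08). The vacuolar proton pump, which acidifies vesicles and lysosomes, had 7 genes above and 5 below 0 and a summed ratio of 0.00031 (-0.24 to 0.25), then 0.00082 (-0.31 to 0.32).

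Tubulin genes lay mostly below 0, with 1 above and 7 below 0 and a summed ratio of -0.53 (-0.82 to -0.24), then -0.68 (-1.03 to -0.33). Tuba1a, a main neuronal alpha-tubulin, had 63 and 46 UMIs and a ratio of -0.81 (-1.39 to -0.24), then -1.19 (-1.83 to -0.54). Microtubule-associated proteins, stathmins and motors were split at 11 above and 9 below, with -0.05 (-0.23 to 0.13), then -0.25 (-0.47 to -0.04). Without the deep barcodes 5 of these genes lay above 0 and 10 below. The neurofilament and axon growth list had 5 above and 4 below, with 0.39 (0.15 to 0.64), then 0.22 (-0.08 to 0.52) and -0.05 under the median scaling. In it, Thy1, a surface protein of projection neurons, gave 1.06 (0.38 to 1.79), then 1.22 (0.29 to 2.29). Gap43, a growth cone protein, gave -0.51 (-1.52 to 0.48), and -1.22 (-2.27 to -0.15) without the deep barcodes.

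Mitochondrial genes did not share 1 value. The mitochondrially encoded genes were 7.6% of control and 10.1% of MNPQ member UMIs, a summed ratio of 0.41 (0.35 to 0.48), then 0.21 (0.13 to 0.29) and -0.04 under the median scaling. Nuclear-encoded subunits of complexes III to V lay above 0 in 25 of 33 cases with a summed ratio of 0.47 (0.30 to 0.63), but 0.01 (-0.17 to 0.20) without the deep barcodes. Subunits of complex I, where electrons enter the respiratory chain, were split at 9 above and 8 below. Without the deep barcodes 3 lay above and 9 below. Their summed ratio was 0.27 (0.06 to 0.48), then -0.11 (-0.35 to 0.14). Cytosolic ribosomal protein genes lay above 0 in 51 of 62 cases with a summed ratio of 0.63 (0.52 to 0.75), then 0.21 (0.08 to 0.35). Without the deep barcodes 37 of 59 lay above 0, beside 62.4% of all genes. Glycolysis genes had 8 above and 4 below, with 0.14 (-0.09 to 0.36), then 0.26 (-0.04 to 0.56). In that list Aldoc, an aldolase that astrocytes make in quantity, had 6 and 49 UMIs and a ratio of 2.67 (1.45 to 4.18), then 1.90 (0.58 to 3.59). Aldoa had 51 and 60 UMIs and a ratio of -0.13 (-0.69 to 0.44), then 0.13 (-0.61 to 0.92).

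Heat shock and chaperonin genes had 3 above and 6 below 0, with a summed ratio of -0.24 (-0.43 to -0.04), then -0.31 (-0.55 to -0.06). Hsp90ab1, a cytosolic chaperone, had 87 and 62 UMIs and a ratio of -0.85 (-1.34 to -0.36), then -0.68 (-1.29 to -0.06). Hspa5, the chaperone of the endoplasmic reticulum, had 15 and 39 UMIs and a ratio of 1.02 (0.13 to 1.98), then 1.90 (0.43 to 3.84). The ubiquitin pathway had 1 above and 5 below, with -0.37 (-0.60 to -0.14), then -0.43 (-0.72 to -0.15). Proteasome subunits had 4 measured genes, 2 on each side, and a summed ratio of -0.48 (-0.77 to -0.20), then -0.49 (-0.83 to -0.13). Antioxidant enzymes had 2 above and 2 below and a summed ratio of 0.0015 (-0.36 to 0.36), then -0.21 (-0.64 to 0.23). Of the familial parkinsonism genes, 3 could be measured. Their summed ratio was 0.01 (-0.36 to 0.37), then -0.49 (-0.90 to -0.08), with Uchl1 at -0.51 (-1.3 to 0.28), then -0.90 (-1.78 to 0.00175), and Chchd2 at 1.23 (0.25 to 2.30), then 0.46 (-0.58 to 1.64). No immediate early gene reached 20 UMIs, and the list had 50 UMIs in control and 70 in MNPQ members and a ratio of 0.13 (-0.42 to 0.68), then -0.014 (-0.67 to 0.68).

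The summed nuclear RNAs were lower in MNPQ members, which also had more barcodes without Malat1 and a lower median depth. The part of either in the ratios was not tested. The list of nuclear and ribosomal-locus noncoding RNAs had 5 of 5 genes below 0 and a summed ratio of -2.90 (-3.02 to -2.78), then -2.70 (-2.83 to -2.57). Without the deep barcodes 3 of the 5 genes lay below 0 and 2 above. Malat1 supplied most of the sum, with a ratio of -3.76 (-3.93 to -3.59), then -3.64 (-3.82 to -3.46). Most of its control UMIs came from 4 barcodes as given above. Genes of splicing and RNA binding lay below 0 in 15 of 18 cases, with a median of -0.99 and a summed ratio of -0.64 (-0.85 to -0.44), then -0.48 (-0.74 to -0.23). Luc7l2, a splicing factor, had 19 and 9 UMIs and a ratio of -1.44 (-2.77 to -0.22), then -1.39 (-2.90 to 0.12). Celf1, an RNA-binding protein, had 2 and 18 UMIs, and 0 control UMIs without the deep barcodes. Imprinted genes had 1 above and 6 below, with -0.74 (-0.94 to -0.54), then -0.12 (-0.40 to 0.16). Within this list Meg3 had 304 UMIs in control members but 61 without the deep barcodes, against 177 in MNPQ members, so that its ratio went from -1.14 (-1.42 to -0.87) to 0.15 (-0.28 to 0.59). Ube3a, an imprinted ubiquitin ligase, had 36 and 15 UMIs and kept its ratio, at -1.62 (-2.60 to -0.72), then -1.57 (-2.67 to -0.48).

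**Figure D5:**
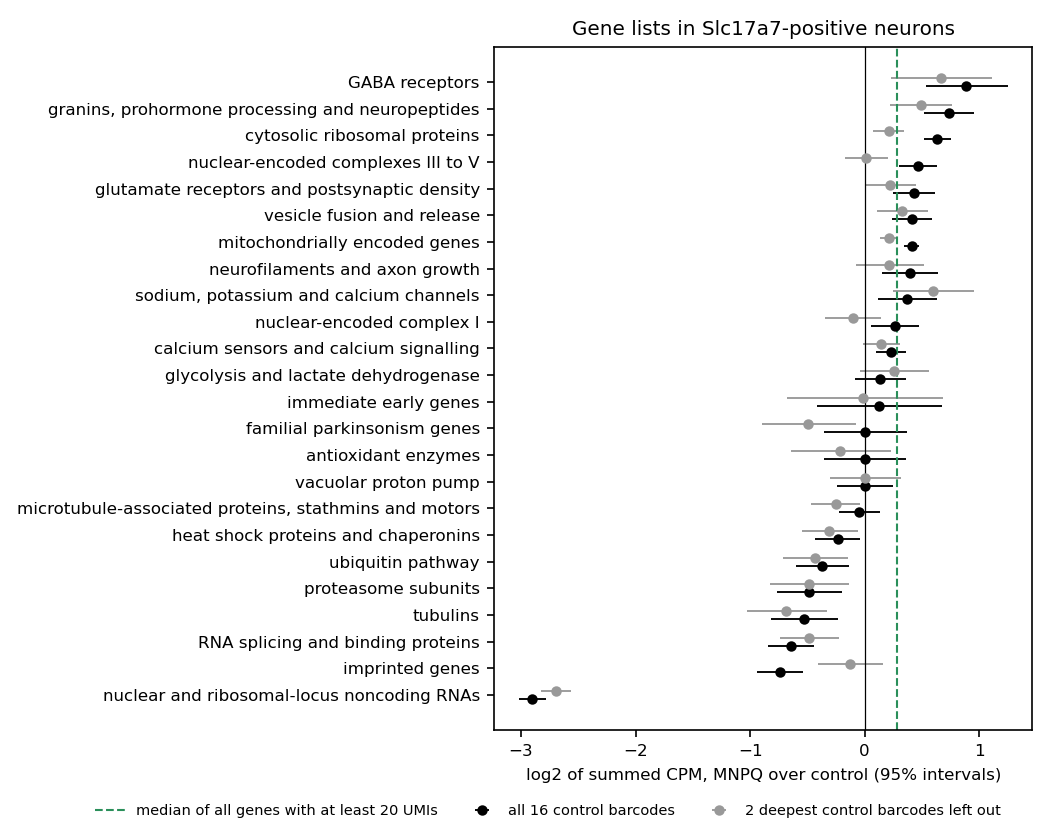
Points are log2 ratios of summed CPM of 24 function lists, MNPQ over control members, and lines are exact 95% counting intervals. Black uses all 16 control barcodes, grey leaves out the 2 deepest, and the dashed line marks the median of all genes with at least 20 UMIs, 0.29. GABA receptors lie at 0.89, nuclear noncoding RNAs at -2.90, and imprinted genes move from -0.74 to -0.12 between the colours.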

How the data were processed

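The authors deposited UMI counts per gene and barcode. Per the file headers they came from Cell Ranger 3.0.2, and mm10 is the genome build per the labels. How barcodes were selected for the matrices is not given in the sources used here. Gene positions are from GENCODE on the same assembly. For each class and library, UMIs were summed over barcodes and divided by the class total (CPM). Ratios carry exact conditional binomial 95% intervals, and shares carry Clopper-Pearson intervals. A count of 0 allows up to 3 counts. No test was possible with 1 library per group. The ratio method was tested on simulated data with known answers. The simulated counts carried only the counting error that the intervals assume. That test therefore does not cover barcodes that hold much of a gene's UMIs. Ratios of lists were summed with rule genes left out, while UMI counts and shares of marker lists include them. In all, 41 lists were used, 16 of markers. Members and lists were chosen with earlier results of these data known. No doublets were removed.

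Genes named between the libraries had at least 40 UMIs, at least 5 in each library, and no more than 20% of a library's UMIs in 1 barcode, taking the 12 highest and 12 lowest. No gene had under 5 UMIs in 1 library and at least 40 in the other. Between positive and negative neurons the 12 highest and 12 lowest were taken by the ratio nearer 0. A few genes and 1 list that these rules reached are not reported here. In lists, examples came from the highest, lowest and most abundant measured members. Thinning used a fixed random seed. Genes named without the deep barcodes followed the same rule and were partly left out. Other named genes were chosen after their values were seen. Alternatives were other barcode filters, other Slc17a7 and UMI minimums, another scaling, thinning, equal weights, doublets left out and deep barcodes left out. Tools were Python 3.11.15, numpy 2.4.6, scipy 1.17.1, pandas 2.3.3 and, for Scrublet, scanpy 1.11.5.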

Additional observations from a re-analysis of the deposited data

Results flagged for a closer look

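For 7 of the 1062 genes measured, the ratio of Slc17a7-positive to Slc17a7-negative neurons pointed in opposite directions in the libraries. Their counting intervals lay on opposite sides of 0. The difference between the libraries was not tested, since each group was 1 library. Malat1 had a log2 ratio of 1.13 in control neurons and -1.94 in MNPQ neurons, and 1.01 in the control library without its 2 deepest members. The 4 deepest control members held 3264 of its 3354 control member UMIs. In the other 12 it was 0.684% of UMIs, against 3.95% in control negative neurons, so its control direction rested on these 4. Gm12027 had 1.25 and -3.44, from 24 UMIs in control and 2 in MNPQ members, and -0.30 in the control library without the 2 deepest. Snhg11 had 0.33 and -1.04, with 61.0% of its control UMIs in 1 member, and -2.02 in the control library without the 2 deepest, so that both libraries then lay below 0. Gnb2, a G protein beta subunit, had 1.13 and -1.39. Pcp4, a calmodulin regulator, had 0.60 and -0.65. Ptn, a growth factor, had -1.31 and 0.65, from 9 and 58 UMIs in members. Cyfip2, a regulator of actin at synapses, had -1.13 and 1.03. Of the control member UMIs, 1 barcode held 43.5% for Gnb2, 45.1% for Pcp4, 66.7% for Ptn and 37.5% for Cyfip2. Without the 2 deepest control members their control ratios were 0.96, 0.76, -2.45 and -0.78.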

How the results depend on the processing

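No paired analysis was possible because each group had 1 library. Of the values recomputed under other settings, 151 gene ratios between the libraries stayed inside their counting interval, 27 left it and 2 turned. For nearer ratios of positive over negative neurons these numbers were 225, 7 and 2, and for summed lists 164, 75 and 11. The share of members became 1.02% and 2.69% with at least 2 Slc17a7 UMIs and 0.686% and 4.76% when thinned before the rule. It was 2.05% and 4.7% under a stricter filter (500 genes, 10% mitochondrial) and 2.27% and 3.42% among barcodes with at least 1000 UMIs. The number of genes measured changed with the setting, so each count is given with it. Between libraries, 54 of 267 genes were higher (20.2%) and 16 lower (5.99%). These became 13 and 7 of 80 with the stricter filter and 25 and 9 of 100 with at least 2 Slc17a7 UMIs. They were 19 and 38 of 267 with median scaling and 18 and 3 of 75 when thinned. Without the 2 deepest control barcodes they were 30 and 9 of 193. A minimum of 20 UMIs gave 146 and 64 of 782, and a minimum of 80 gave 18 and 5 of 83. The higher genes numbered 29 of 275 with equal weights and 23 of 108 above 1000 UMIs. The lower genes numbered 9 of 207 without the deepest barcode of each library. For positive over negative neurons, 18 of 1062 genes were higher and 24 lower. These became 2 and 10 of 343 with the stricter filter and 5 and 6 of 365 when thinned. They were 8 and 11 of 463 above 1000 UMIs, 65 and 73 of 2412 at 20 UMIs and 6 and 5 of 412 at 80. Of 25 lists, 12 lay above 0 and 7 below. Above 0 there were 4 with median scaling, 4 when thinned and 7 without the 2 deepest control barcodes. Below 0 there were 13 with median scaling, 4 with at least 2 Slc17a7 UMIs and 4 without the deepest barcode of each library.

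Among genes past 2-fold and lists whose interval excluded 0, 15 values turned. Complex I went to -0.00033 with the stricter filter, -0.18 with median scaling, -0.028 when thinned and -0.11 without the 2 deepest control barcodes. Imprinted genes went to 0.0032 with the stricter filter. Median scaling, which lowers every ratio by 0.45, turned release genes (-0.033), glutamate receptors (-0.020), calcium signalling (-0.21), channels (-0.075), axon growth (-0.053) and mitochondrially encoded genes (-0.037). Thinning turned Camk2n1 (-0.070), Rps3 (-0.14) and Chst1 (-0.47), and the stricter filter turned Slc39a10 (-0.056). A further 49 values that were not past these limits changed sign. Among them were, with median scaling, glycolysis (-0.31), antioxidant enzymes (-0.45), the proton pump (-0.45), parkinsonism genes (-0.44), immediate early genes (-0.32), Selenow (-0.21) and Rpl35a (-0.17). The stricter filter took glycolysis to -0.33. Equal weights took Cpe to -0.090, Hsp90b1 to -0.24, Selenow to -0.27 and Rpl35a to -0.24. Thinning took Cpe to -0.17, Rpl35a to -1.35, Atp6ap1 to -0.29, Hsp90b1 to -0.070 and immediate early genes to -0.65. Above 1000 UMIs Rpl30 went to 0.66. Fewer barcodes and genes enter the stricter, thinned and deep settings. For the other moves the cause was not tested. Thinning left 75 genes between the libraries, so depth limits most single genes.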
